A study of Mus musculus with 112 samples.

Results

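Sperm DNA methylation (DNAme) at the first recovery interval after cigarette smoke (CS) exposure was compared with that of unexposed sperm. The members were chosen by their labels and by the deposited tables that hold them: 9 libraries of recovery 1 WT F0 sperm and 10 libraries of control WT F0 sperm, 19 of the 112 samples of the series. All of these males were C57BL/6J wild type (WT) mice, and no allele or transgene distinguished the groups. Recovery 1 males had breathed CS on 5 days per week over 60 days, starting at 6 to 7 weeks of age, and sperm was taken 28 days after the last exposure. Control males were not exposed and were age matched at the start of smoking, with sperm taken within 3 days of the end of the exposure period. Recovery 1 males were therefore older at collection than the controls, and the effect of age cannot be told apart from that of exposure and recovery. Smoked WT sperm (n = 9), taken within 3 days of the last exposure, is used as a further reference. Recovery 2 and recovery 3 WT sperm (n = 10 each) came from males with the same exposure taken at later intervals than recovery 1, and are shown beside some results. Smoked Nrf2-/- sperm (n = 9) is given at 2 regions and in 2 classes of level. The sperm of unexposed Nrf2-/- males (control Nrf2-/-, n = 10), which lack the antioxidant regulator NRF2, served to sort regions by level. Each library was treated as 1 sample, and nothing in the labels ties a library to a particular male.

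DNAme is the addition of a methyl group to cytosine, in mammals mostly where a cytosine precedes a guanine (a CpG). In male germ cells the mark is laid down before birth by de novo methyltransferases and is then copied at each division of the spermatogonia that supply sperm throughout adult life. Mature sperm have a sharply divided pattern, in which CpG-rich promoters are almost free of DNAme and most of the remaining genome is almost fully methylated. Regions between these extremes differ in DNAme from sperm cell to sperm cell or between alleles. Because spermatogenesis is continuous, sperm taken some weeks after an exposure were less mature germ cells while the exposure lasted.

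Reduced representation bisulfite sequencing (RRBS) reads CpG-rich fragments cut out by restriction enzymes, and the deposited value of a cytosine is the percent of its reads that were methylated. Libraries of control WT held values for 800605 to 1673297 cytosines and those of recovery 1 for 1031274 to 1438541. Cytosines were kept if each of the 7 groups of F0 sperm had at least 4 libraries with a value, and these 1023708 are called scoreable. Scoreable cytosines no more than 100 bp apart were joined, and 62831 regions with at least 3 cytosines and a length over 50 bp were kept. Read counts did not accompany the percentages, so that the depth behind each value is unknown. The headings of the columns carry facility numbers in runs of 5 that interleave the WT groups, and libraries are named here by their run, so that recovery 1 has no library 5. No 2 of the 19 libraries were copies, since at most 2.97% of 79274 cytosines of middle level had the same value in a pair.

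Imprinted loci gave a check of the label. Promoters that carry DNAme only on the maternal chromosome are expected to be free of it in pure sperm, whereas somatic cells carry it on 1 of their alleles. Of 27 regions within 1000 bp of a start of a gene on the list of maternally methylated loci, 26 were below 4% in both groups. The exception was a region near a start of Slc38a4 (chr15:97019809-97019914), at 93.5% in control and 92.7% in recovery 1, and 2 other regions at this gene were between 0.514% and 2.96%. Averaged over the 26 promoters, recovery 1 libraries were between 0.864% and 1.29% and control libraries between 0.415% and 3.16%, with control libraries 1 (3.16%) and 9 (2.81%) above all others. Of the paternally methylated loci, only the region upstream of Rasgrf1 was measured, with 2 regions at 93.7% and 82.9% in control and 89.4% and 79.1% in recovery 1. Averaged over those of the 2 regions with a value, control libraries were between 79.9% and 91.8% and recovery 1 libraries between 72.8% and 92.8%, with recovery 1 libraries 7 (74.2%), 8 (77.9%) and 9 (72.8%) below every control library. The part of somatic cells in the results below was not tested.

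Mean DNAme did not differ detectably between the groups. Over all scoreable cytosines the mean was 36.1% ± 1.17 (SD, n = 9) in recovery 1 and 36.04% ± 2.30 (SD, n = 10) in control, a difference of 0.0985 percentage points (exact permutation test over libraries, two-sided, p = 0.913). In control the extremes of these means were the extremes of the number of cytosines a library had: control library 9, with the fewest (800605), was highest at 40.8%, and control libraries 5 and 8, with the most, were lowest at 33.02% and 33.03%. Recovery 1 followed this order in part. Library 4, with the fewest cytosines (1031274), was at 37.7%, below only library 7. Library 3, with the most (1438541), was at 35.2%, above only library 6. Library 7 was highest at 38.2% with 1208275 cytosines, and library 10 was at 35.4% with 1109070. Libraries 7 and 4 had values at the smallest shares of scoreable cytosines in recovery 1, 82.8% and 82.9%. Over the 469644 cytosines with a value in all 19 libraries the means were 45.3% ± 0.284 in recovery 1 and 45.4% ± 0.834 in control. Recovery 1 libraries spanned 44.9% to 45.96% here and lay inside the control range of 43.9% to 46.6%.

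**Figure D1:**
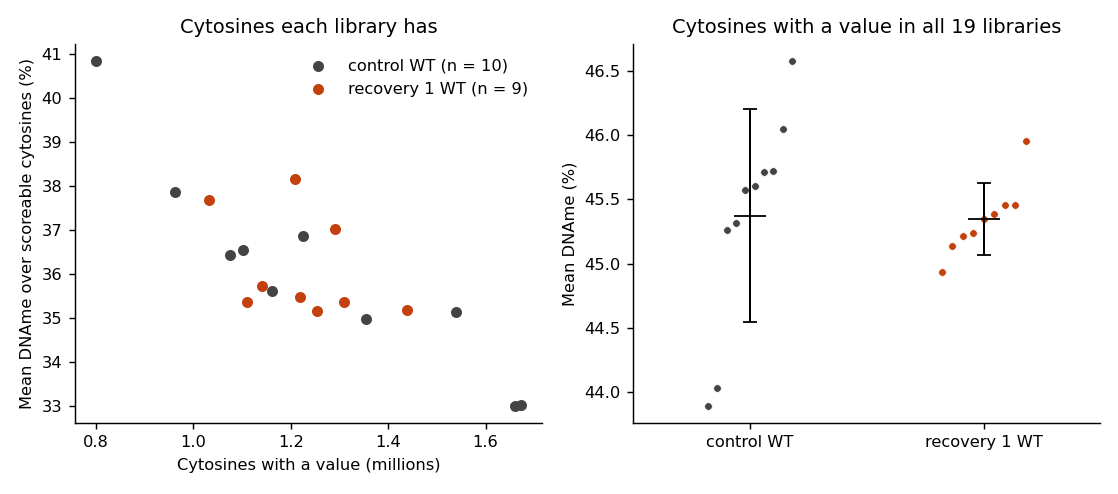
Mean DNAme (%) of each library, as points. Left, the mean over scoreable cytosines against the number of cytosines with a value, where control libraries 5 and 8, with the most cytosines, were lowest and control library 9, with the fewest, was highest; right, the mean over the 469644 cytosines present in all 19 libraries, with the group mean and SD as bars, where recovery 1 (44.9% to 45.96%) lay within the control range.

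The groups stood furthest apart in regions of middle DNAme, where the mean was lower in recovery 1. Regions between 25% and 50% in control averaged 34.01% ± 1.18 (n = 9) in recovery 1 and 36.3% ± 2.52 (n = 10) in control, and the libraries spanned 32.4% to 36.02% and 32.5% to 41% (difference -2.30 points, exact permutation test, two-sided, p = 0.0216, adjusted over 14 classes 0.151). Regions between 50% and 75% averaged 61.7% ± 1.17 and 63.7% ± 1.45, with libraries at 60.6% to 64.2% in recovery 1 and 61.6% to 65.4% in control (difference -1.98 points, exact p = 0.00653, adjusted 0.0914). Neither class passed the adjusted threshold of 0.05, and the libraries of the 2 groups overlapped in both. The class from 50% to 75% did pass without recovery 1 library 2 (adjusted exact p = 0.0227), without control library 7 (0.0438) or without control library 10 (0.0357), and the class from 25% to 50% passed without control library 10 (0.0357). No other omission of 1 library made either class pass, and the adjusted exact p reached 0.181 at 50% to 75% and 0.296 at 25% to 50%. All of these p values used classes cut by the level in the control WT libraries, which were themselves compared. Single libraries were not left out with classes set by other sperm. When the classes were set by control Nrf2-/- sperm, which took no part in the comparison, the differences were -2.18 points (37.4% ± 2.43 in control, 35.2% ± 1.11 in recovery 1) and -1.77 points (65.3% ± 1.49 and 63.6% ± 1.16), both at an adjusted exact p of 0.167.

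The fully methylated and the unmethylated parts of the genome differed by less. Regions above 75% were at 93.9% ± 0.369 in recovery 1 and 94.0% ± 0.766 in control, and regions below 25% at 1.47% ± 0.218 and 1.51% ± 0.429. Promoter regions, within 1000 bp of an annotated start, were at 2.29% ± 0.250 and 2.32% ± 0.430. The differences for exons, introns and intergenic regions were -0.26, -0.34 and -0.51 points, those for the 4 classes of CpG density lay between -0.52 and -0.02 points, and chromosome X differed by -0.50 points, with adjusted exact p from 0.899 to 0.902 for these 8 classes. With only the cytosines present in every library, the same 12 classes outside the middle levels kept an adjusted exact p of 0.613 or above.

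Set beside the other WT groups, control WT had the highest mean in both middle classes. In the regions at 25% to 50% in control Nrf2-/- sperm, control WT libraries averaged 37.4%, smoked WT 35.8% ± 1.96, recovery 1 35.2%, recovery 2 36.2% ± 1.85 and recovery 3 34.8% ± 0.747. In those at 50% to 75% the means were 65.3%, 63.9% ± 1.60, 63.6%, 64.4% ± 1.35 and 63.9% ± 0.426. Both Nrf2-/- groups were below control WT as well. Control Nrf2-/- sperm, which was not exposed and set the classes, averaged 36.2% ± 2.35 and 63.6% ± 2.06. Smoked Nrf2-/- sperm averaged 36.9% ± 1.76 and 64.4% ± 1.25. The libraries of all 5 WT groups overlapped in both classes, and these levels are given as a description.

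**Figure D2:**
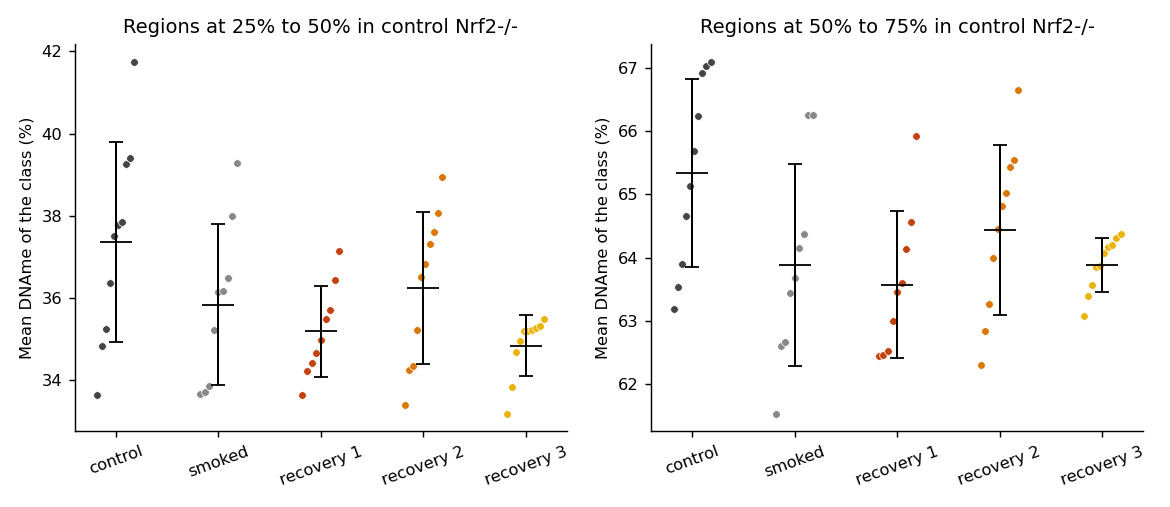
Mean DNAme (%) over the cytosines of regions at 25% to 50% (left) and 50% to 75% (right) in control Nrf2-/- sperm, with 1 point per library of the 5 WT groups and the group mean and SD as bars. Recovery 1 averaged 35.2% and 63.6%, below control WT (37.4% and 65.3%) with overlapping libraries.

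The spread between libraries differed by 0.0925 points between the groups, which did not pass. Each library was compared with the mean of the other libraries of its group, region by region, and the mean absolute distance was 2.36 ± 0.344 points in recovery 1 (n = 9, from 1.88 to 2.90) and 2.26 ± 0.372 points in control (n = 10, from 1.71 to 2.92; exact permutation test, two-sided, p = 0.579). The median SD of a region was 1.80 points in both groups. It was 7.44 in recovery 1 and 7.38 in control for regions at 25% to 50%, 7.09 and 6.61 at 50% to 75%, 2.67 and 2.52 above 75%, and 0.991 and 1.06 below 25%, so that a region of middle level had to differ by more before it stood out from its own spread.

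Single cytosines and regions gave different balances of direction. Group means differed by more than 5 points at 112735 of 1023708 scoreable cytosines (11%), of which 58324 were higher and 54411 lower in recovery 1. In the regions, 38329 of 667547 cytosines differed (5.74%) and 44.7% of these were higher, whereas outside the regions 74406 of 356161 differed (20.9%) and 55.4% were higher. No test stands behind these counts, which compare group means.

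Differentially methylated regions (DMRs) were called by size alone, where the mean change over the cytosines exceeded 5 points and at least 33.3% of the cytosines changed by more than 5 points. This mean takes each cytosine over the libraries that had it, and it can differ from the difference of library means given for single regions, which leaves out libraries with too few cytosines. Library values also fill cytosines that a library lacks from the means of the 7 F0 groups. This gave 2137 DMRs, or 3.4% of 62831 regions, of which 1579 were lower (2.51% of regions) and 558 higher (0.888%) in recovery 1. Their median absolute change was 6.92 points, 370 changed by more than 10 points and 10 by more than 20. The smallest change of a DMR was 5.00 points, 656 DMRs lay between 5 and 6 points, and 987 regions with enough changed cytosines lay between 4 and 5 points and were not called. The share of DMRs that were higher was 26.1%, 27.6% when each library was centred (2112 DMRs with 582 higher), and 47.7% when cytosines were joined over up to 300 bp, where 4823 regions were called. Within DMRs the median SD between libraries was 8.62 points in control and 8.59 in recovery 1, well above the median of all regions, and 727 of the DMRs (34.02%) had an unadjusted p below 0.05 in the test described below. Both of these use the contrast that chose the DMRs and lend it no support.

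The share of regions that were DMRs differed between classes of level, annotation and CpG density. Sorted by the level in control Nrf2-/- sperm, DMRs made up 25.5% of the regions at 25% to 50% (540 of 2117) and 23.1% of those at 50% to 75% (485 of 2097), against 1.35% below 25% (475 of 35117) and 2.71% above 75% (637 of 23500). The lower direction held 80.4%, 84.6%, 77.9% and 56.8% of the DMRs in these classes from the lowest level to the highest. By annotation DMRs took 0.921% of promoter regions (224, with 39 higher), 3.56% of exon regions (279, with 65 higher), 4.20% of intron regions (623, with 184 higher) and 6.39% of intergenic regions (1011, with 270 higher). In the 4 classes of CpG density, from the lowest to the highest, DMRs took 5.09%, 4.43%, 3.41% and 0.681% of regions. They had a median of 4 CpGs per 100 bp against 4.94 over all regions and a median of 4 measured cytosines against 6. Chromosome X held 69 DMRs among 1311 regions (5.26%) and chromosome Y 8 among 46. At an unadjusted limma p below 0.05 the shares by annotation and density lay closer together. They were 5.02% of promoter, 5.62% of exon, 5.08% of intron and 5.68% of intergenic regions. By CpG density they were 5.15%, 5.46%, 5.52% and 4.98%, and on chromosome X 4.42%. By level, from the lowest to the highest, they were 5.16%, 8.79%, 8.11% and 4.88%.

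**Figure D3:**
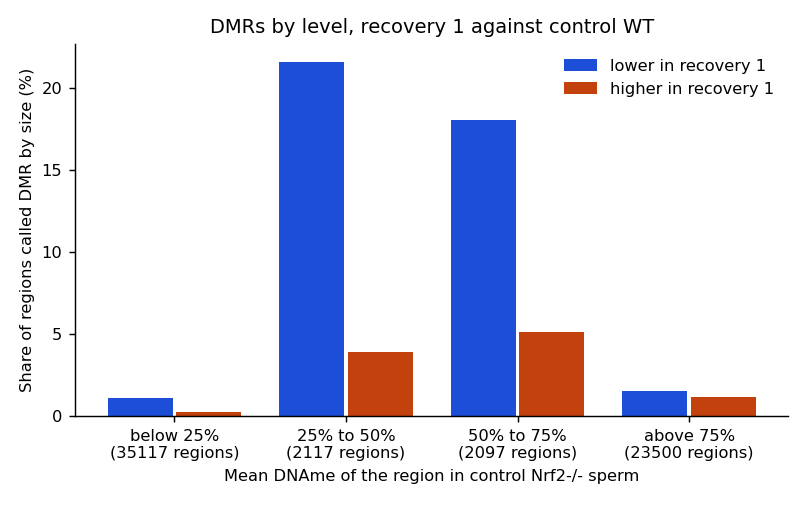
Share of regions (%) called as a DMR by size, for 4 classes of DNAme in control Nrf2-/- sperm, with DMRs lower in recovery 1 in blue and higher ones in orange. DMRs of both directions together took 25.5% and 23.1% of the 2 middle classes and 1.35% and 2.71% of the outer ones.

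Interspersed repeats, many of them remnants of transposable elements that germ cells keep silent through DNAme, were marked in the reference genome by soft masking. Of all regions 7.78% were masked over more than 50% of their length, and of the DMRs 18.8% (401). Below 25% DNAme, DMRs made up 9.33% of the masked regions and 1.16% of the unmasked. At 25% to 50% the shares were 21.97% and 26.5%, and at 50% to 75% 22.9% and 23.2%, and above 75% they were 3.08% and 2.66%. These shares were not tested. How many reads could be placed in more than 1 copy of a repeat is not given, and the part of such reads was not tested.

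The largest DMRs had few libraries and wide ranges. The largest increase, 28.7 points, lay in an exon of D10Wsu102e (chr10:83432517-83432621), where 5 control libraries averaged 55.95% ± 25.3 and 5 recovery 1 libraries 87.0% ± 17.3. The largest decrease, -26.7 points, lay 20072 bp from a start of Dnajb12, a co-chaperone gene (chr10:59899698-59899785), with 62.9% ± 10.9 in 5 control libraries and 36.1% ± 18.7 in 7 recovery 1 libraries. Both were picked after their values were seen, and their groups overlapped.

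To ask which regions differed beyond the spread between libraries, region values of all 67 F0 libraries were fitted with limma. The fit takes 1 spread per region from all 7 groups, so its SE and p do not measure the spread of recovery 1 and control alone. No region passed in recovery 1 minus control WT at an adjusted p below 0.05 (0 of 62831, 0%), and 3316 regions (5.28%) had an unadjusted p below 0.05, of which 1957 (3.11% of regions) were lower. The share of these that were higher was 40.98% and became 51.98% when each library was centred on its median. With array weights 1661 of 3239 were higher, and without control library 1 it was 1780 of 3228. Lower regions stayed more numerous when any other library was left out. The predominance of lower regions thus depended on the scaling, the weights and control library 1. The count of passing regions was 1 with recovery 1 and control WT fitted alone and 4 when every cytosine of a region had to be present, while variance moderation with a trend, array weights or a logit scale each gave 0. Leaving out control library 4 or recovery 1 library 8 gave 1 passing region, and leaving out recovery 1 library 9 gave 3. The groups did not overlap in 2 of 62381 regions with at least 5 values in each group (0.00321%), both lower in recovery 1. Whether this count exceeds what the spread between libraries alone would give was not tested.

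The first of the 2 lies in a coding exon of Muc6, which encodes a gel-forming mucin of the stomach, and among the regions with at least 5 values in each group it is the only DMR whose libraries did not overlap. Recovery 1 libraries ranged from 90.4% over a median of 93.3% to 94.1%, and control libraries from 95.2% over 97.5% to 99.4%. Every recovery 1 library thus lay below every control library. The means were 92.4% ± 1.58 (n = 9) and 97.5% ± 1.499 (n = 10), a change of -5.13 ± 1.38 points (SE, limma adjusted p = 0.716). In the fit of these 2 groups alone the adjusted limma p was 0.0437, and it ranged from there to 0.903 over the alternatives. The region was picked because its libraries did not overlap. Its p values use the same libraries and lend the separation no support. The 3 cytosines of the region differed by -6.08, -3.63 and -5.80 points, so that all were lower. Smoked WT was at 96.4% ± 2.17, recovery 2 at 95.3% ± 3.64 and recovery 3 at 96.8% ± 3.37, while unexposed Nrf2-/- sperm was at 92.6% ± 3.66. The other region lies 24404 bp from Nkx2-9 (chr12:56637688-56637799), a homeobox gene, where 6 recovery 1 libraries were all listed at 0 and 8 control libraries lay between 0.926% and 4.91%.

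The sequences of the regions on which the results turn are given here from the forward strand of mm10, with the measured CpGs in capitals. The Muc6 region (chr7:141636545-141636627) is shown because its libraries separated, the Arid4a exon (chr12:71045002-71045082) and the Pold2 promoter (chr11:5878042-5878123) because they had the smallest p after Mier1, and the Adamts9 region (chr6:93274288-93274355) because it was low in all recovery groups. The Brinp3 (chr1:147456499-147456594) and Bex4 (chrX:136126951-136127008) regions show sequence of middle DNAme, and the Polr2m promoter (chr9:71485435-71485612) shows a CpG-dense one.
Muc6: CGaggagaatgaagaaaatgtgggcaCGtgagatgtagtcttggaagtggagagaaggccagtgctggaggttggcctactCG
Arid4a: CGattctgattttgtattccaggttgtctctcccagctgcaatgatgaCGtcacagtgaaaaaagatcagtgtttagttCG
Pold2: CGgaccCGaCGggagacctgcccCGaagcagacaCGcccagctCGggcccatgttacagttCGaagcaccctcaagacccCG
Adamts9: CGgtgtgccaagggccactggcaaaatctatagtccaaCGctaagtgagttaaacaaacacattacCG
Brinp3: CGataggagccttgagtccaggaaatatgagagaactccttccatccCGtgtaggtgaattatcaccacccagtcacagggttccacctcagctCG
Bex4: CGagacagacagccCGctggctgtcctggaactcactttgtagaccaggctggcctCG
Polr2m: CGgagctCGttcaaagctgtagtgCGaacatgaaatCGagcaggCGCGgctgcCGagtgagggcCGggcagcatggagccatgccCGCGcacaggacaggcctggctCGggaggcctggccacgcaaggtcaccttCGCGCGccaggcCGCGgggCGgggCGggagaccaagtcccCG
The region named for Brinp3 was soft-masked over 84.4% of its length and that named for Bex4 over 100%.

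The 20 regions with the smallest limma p and at least 5 values in each group came next, of which 16 were lower and 4 higher in recovery 1, and 13 were DMRs. Adjusted p ran from 0.0820 to 0.714, none passed, and the groups overlapped in all 20. They comprised 5 promoter, 4 exon, 3 intron and 8 intergenic regions, 2 of them on chromosome X. Those named for Brinp3, Bex4, Gm5114 and G2e3, 4 in all, were masked over more than 50% of their length. Since these regions were picked by p, their values are a description.

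Among regions at genes of chromatin and transcription, the smallest p was at the promoter of Mier1 (chr4:103115211-103115322), which encodes a corepressor that recruits histone deacetylases. The same region also lies within 1000 bp of a start of Wdr78. Control library 3 was at 12.3%, library 4 at 7.35%, library 5 at 22.1%, library 6 at 16.1% and library 7 at 21.2%, and the other 5 had no value there. The 9 recovery 1 libraries ran from 0% over a median of 2.78% to 7.35%. Only the lowest control library reached the range of recovery 1. The change was -12.80 ± 2.29 points (15.8% ± 6.19, n = 5, to 3.01% ± 2.81, n = 9; limma adjusted p = 0.0820, 0.00636 to 0.856 over alternatives). The region passed without control library 4 (limma adjusted p = 0.00636), without recovery 1 library 9 (0.0190) and when every cytosine was required (0.0358). Control library 4 was the lowest of control and recovery 1 library 9 the highest of recovery 1, both at 7.35%. The change lay in 3 of its 4 measured cytosines, at -11.34, -32.67 and -7.07 points, while the first differed by 0.05 points. Part of the region is untranslated sequence of 1 transcript in the comprehensive GENCODE set, and it is therefore not printed.

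In a coding exon of Arid4a, which encodes a retinoblastoma-binding chromatin protein, recovery 1 libraries ran from 72.6% over 92.1% to 98.8% and control libraries from 92.6% over 98.6% to 100%. Of the recovery 1 libraries 6 lay below the lowest control and 3 within the control range. The means were 88.4% ± 9.04 (n = 9) and 97.6% ± 2.79 (n = 10), a change of -9.23 ± 1.87 points (limma adjusted p = 0.195). Recovery 1 had the widest spread, the other F0 groups having SDs from 1.61 to 3.27 points, and the SE rests on the spread of all groups. The limma adjusted p was 0.0194 without recovery 1 library 8 and 0.0190 without recovery 1 library 9, and it reached 0.969 in another alternative. These 2 libraries were the highest of recovery 1, at 98.8% and 97.1%, and lay within the control range. All 4 cytosines were lower, by -5.20 to -13.59 points.

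At the promoter of Polr2m, a subunit that associates with RNA polymerase II, both groups were nearly unmethylated. Recovery 1 libraries ran from 0.232% over 0.881% to 2.44% and control libraries from 0% over 0.375% to 0.769%. The change was 0.85 ± 0.21 points (limma adjusted p = 0.714), with 5 of 9 recovery 1 libraries above every control. The promoter of Pold2, an accessory subunit of DNA polymerase delta, was at 0.430% ± 0.631 (n = 7) in control and at 3.27% ± 2.11 (n = 5) in recovery 1. Here 4 of 5 recovery 1 libraries exceeded the highest control library of 1.67% and the fifth was at 0%. The change was 2.84 ± 0.56 points (limma adjusted p = 0.195). It passed in 1 of 27 alternatives, without recovery 1 library 9, the library at 0% (limma adjusted p = 0.000237). In another alternative the limma adjusted p reached 0.969. Recovery 1 had the widest spread there, the other F0 groups having SDs from 0 to 1.14 points, and the SE rests on the spread of all groups. Of the 10 cytosines of the Pold2 region, 4 were higher, by 1.25 to 8.10 points, 1 was lower by 2.38 points and 5 were at 0% in both groups.

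**Figure D4:**
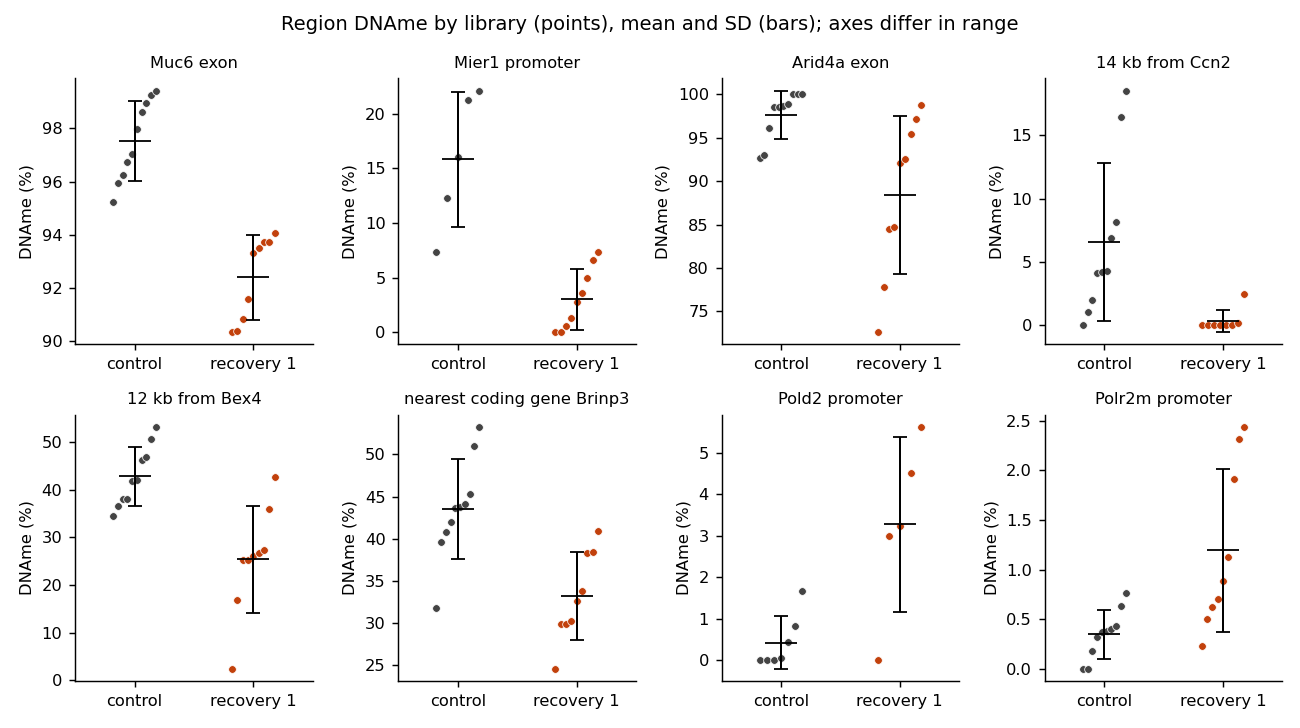
DNAme (%) of 8 regions by library (points) in control WT and recovery 1 WT, with the group mean and SD as bars and a different range on each axis. The Muc6 libraries separate, with recovery 1 up to 94.1% and control from 95.2%, and those of the other 7 regions overlap.

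Among regions of middle DNAme, the largest change of the 20 was 11988 bp from Bex4, an X-linked gene expressed in brain and testis. Control libraries ran from 34.6% over 41.9% to 53.1% and recovery 1 libraries from 2.39% over 26.1% to 42.6%, with 7 of 9 recovery 1 libraries below every control. The change was -17.41 ± 4.10 points (limma adjusted p = 0.676). A region whose nearest coding gene is Brinp3, a neural gene that restrains the cell cycle, at 958812 bp, was at 43.5% ± 5.93 in control and 33.2% ± 5.21 in recovery 1 (-10.32 ± 2.36 points, limma adjusted p = 0.504), with 4 of 9 recovery 1 libraries below every control. A region 201060 bp from Gm5114 (chr7:39211919-39212100) with 13 cytosines was at 61.6% ± 8.73 in 9 control libraries and 47.1% ± 6.02 in 8 recovery 1 libraries. A region at the start of the transcript Gm35520, 61315 bp from Lonrf1 (chr8:36188014-36188201), was at 38.6% ± 6.23 and 29.4% ± 3.78.

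A region 330796 bp from Adamts9, which encodes a secreted metalloprotease of the extracellular matrix, was at 65.9% ± 4.66 in control, with libraries from 54.96% over 66.9% to 71.2%. Recovery 1 libraries were at 45.6% over 53.2% to 65.7%, and 5 of 9 lay below every control. The change was -12.10 ± 2.99 points (limma adjusted p = 0.714) and -10.77 points against smoked WT (limma adjusted p = 0.939), whose libraries averaged 64.5% ± 7.49. The later recovery groups were lower again, at 40.5% ± 5.43 (recovery 2, n = 10) and 34.1% ± 4.43 (recovery 3, n = 10), while unexposed Nrf2-/- sperm was at 53.9% ± 9.22. Males of the recovery groups were older with each interval, and age and recovery cannot be told apart in this order. Of its 4 cytosines the first differed by -24.50 points between recovery 1 and control and the others by -3.71 to -12.17 points.

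In 2 regions of low DNAme, near Ccn2 and at Mier1, control WT had the highest mean of the 7 groups. The region 14091 bp from Ccn2 (chr10:24609817-24609926), a gene of a secreted matrix protein, ran from 0% over 4.25% to 18.5% in control and was listed at 0 in 6 of 8 recovery 1 libraries, with 0.215% and 2.5% in the others. Smoked WT averaged 0.254% ± 0.470, recovery 2 0.464% ± 0.934, recovery 3 0.830% ± 1.78 and control Nrf2-/- 0.534% ± 1.16. Smoked Nrf2-/- sperm was higher than these, at 2.77% ± 3.08 in 8 libraries and up to 9.09%. The change in recovery 1 was -6.24 ± 1.36 points (limma adjusted p = 0.361). At Mier1, smoked WT was at 8.35% ± 3.58, recovery 2 at 6.46% ± 4.08, recovery 3 at 6.92% ± 4.18 control Nrf2-/- at 2.79% ± 3.44 and smoked Nrf2-/- at 3.89% ± 5.26, against 15.8% in control WT. These comparisons share the control libraries and are therefore not independent of each other.

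**Figure D5:**
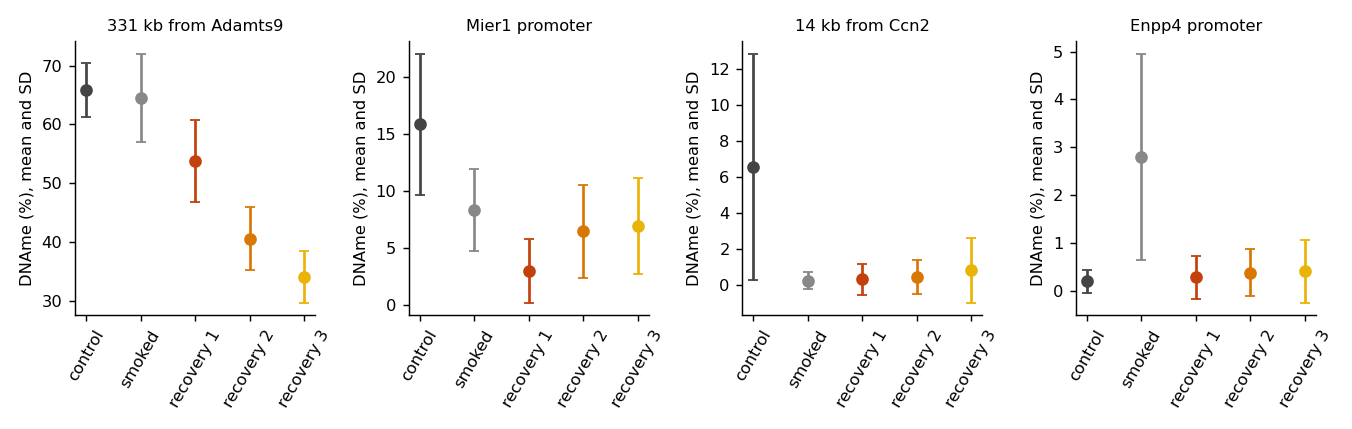
Mean DNAme (%) and SD over libraries in the 5 WT groups for the regions near Adamts9, Mier1, Ccn2 and Enpp4, with a different range on each axis. Near Adamts9 the mean was 65.9% in control and 53.8%, 40.5% and 34.1% in recovery 1, 2 and 3, near Ccn2 only control WT was above 1%, and at Enpp4 only smoked WT was.

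Regions of high DNAme made up the remainder of the 20. Lower means in recovery 1 were found in introns of Agap1, a regulator of membrane traffic (96.0% ± 1.64 to 91.1% ± 2.77), of Sorcs1, a neuronal sorting receptor (95.8% ± 1.99 to 89.8% ± 7.01), and of Mtg1, a mitochondrial GTPase (87.6% ± 2.57 to 79.8% ± 6.08). Exons of Ddi2, a protease that activates the proteasome regulator NRF1 (96.5% ± 1.82 to 92.5% ± 2.88), and of Hkdc1, a hexokinase family member (97.1% ± 2.03 to 92.6% ± 4.77), were lower as well, as was a region 16357 bp from Itm2a on chromosome X (94.5% ± 2.60 to 87.9% ± 3.82). The promoter of Slc36a2, an amino acid transporter, was lower at a lower level (23.6% ± 7.34 in 5 control libraries, 8.03% ± 6.81 in 8). An exon of Vwa7 was higher (91.7% ± 3.23 to 96.2% ± 2.12), with 7 of 9 recovery 1 libraries above every control, and so was a region 34534 bp from G2e3, a ubiquitin ligase gene (92.8% ± 5.28 in 6 libraries to 99.3% ± 0.786 in 6). The limma adjusted p of these 9 regions ran from 0.361 to 0.714.

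Recovery 1 was also compared with smoked WT, which asks what differed after the interval without smoke. limma passed 0 of 62831 regions (0%), with 3144 (5%) at an unadjusted p below 0.05, and the fit of these groups alone, array weights, a trend and a logit scale each gave 0. The smallest p was at the promoter of Enpp4 (chr17:44105367-44105500), an ecto-nucleotidase gene. Smoked WT libraries ran from 0.311% over 2.45% to 6.67% and recovery 1 libraries from 0% over 0.155% to 1.33%, and the groups overlapped. Recovery 1 differed from smoked WT by -2.51 ± 0.47 points (limma adjusted p = 0.0989), from means of 0.283% ± 0.451 (n = 8) and 2.80% ± 2.15 (n = 8). The F0 groups other than smoked WT had SDs from 0.239 to 0.865 points there. In the fit of recovery 1 and smoked WT alone, the smallest limma adjusted p of any region was 0.972. Control was at 0.196% ± 0.239, and recovery 1 differed from it by 0.09 ± 0.45 points (limma adjusted p = 0.997). Where measured, the cytosines of the region averaged from 0% to 0.357% in control, so part of the control level comes from filled cytosines.

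Lists of genes were then read for DMRs and for regions at an unadjusted p below 0.05, against 3.4% and 5.28% of all regions. A region counted for a gene when it overlapped the gene or lay within 5000 bp of a start. No region of any list passed after adjustment over all regions. The lists were chosen with earlier results of these data known.

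In genes of oxidative defence and of the response to smoke constituents the shares of DMRs were 1.67% and 4%. Median control levels of these lists were 1.49% and 2.47% against 6.90% over all regions, and regions below 25% were DMRs at 1.35%. Of 60 regions at 21 of 25 targets of NRF2, the transcription factor that drives antioxidant genes, 1 was a DMR (1.67%) and 3 were at p below 0.05 (5%, of which 1 was higher), and the median change was 0.10 points against -0.05 over all regions. The DMR lay 4176 bp from the gene of catalase, Cat, in a region masked over 60.5% of its length, at 55.7% ± 6.35 in control and 50.2% ± 4.33 in recovery 1 (-5.50 ± 2.33 points, limma adjusted p = 0.925). The libraries ran from 45.3% over 56.95% to 64.8% and from 43.6% over 51.8% to 56.7%, and they overlapped widely. Of 50 regions at 13 of 16 genes of the aryl hydrocarbon receptor pathway and of markers of smoking, 2 were DMRs (4%), both lower, and 3 were at p below 0.05 (6%), with a median change of -0.20 points. The DMRs lay in introns of Cntnap2, a neurexin family gene (88.2% ± 5.21 in 8 libraries to 78.5% ± 6.54 in 9, limma adjusted p = 0.876), and of Rara, a retinoic acid receptor (73.8% ± 8.45 in 9 to 62.7% ± 8.88 in 7, limma adjusted p = 0.936). The Cntnap2 region was masked over 79.3% of its length.

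Regions at genes of the germ line had low median control levels, of 1.67% for spermiogenesis and 1.57% for germline and meiosis. Of 20 regions at 12 of 20 genes of sperm chromatin and spermiogenesis, 0 were DMRs and 0 had a p below 0.05, and the smallest p was at Spata18, a spermatogenesis gene (0.974% ± 0.944 to 0.516% ± 0.414, limma adjusted p = 0.950). Of 39 regions at 16 of 20 genes of germline and meiosis, 0 were DMRs and 2 (5.13%) were at p below 0.05, both higher, with the smallest p in an intron of Zbtb16, a factor of spermatogonial stem cells (94.6% ± 2.33 to 96.7% ± 1.69, limma adjusted p = 0.936). Of 63 regions at the 18 maternally methylated imprinted genes, 0 were DMRs and 6 (9.52%) were at p below 0.05, of which 4 were lower. The smallest p was in an intron shared by Igf2r, the receptor that clears IGF2, and its antisense transcript Airn, at 23.9% ± 2.29 in 9 control libraries and 20.7% ± 2.26 in recovery 1 (-3.25 ± 1.13 points, limma adjusted p = 0.876). Of 48 regions at 13 of 15 genes of the list of DNAme enzymes and associated proteins, 1 was a DMR, at the start of Mbd3, a subunit of the NuRD chromatin remodelling complex (62.1% ± 8.12 in 7 libraries to 54.8% ± 10.9 in 8, limma adjusted p = 0.941). The smallest p of that list was in an intron of Tet2, an enzyme that oxidizes methylated cytosine (96.8% ± 1.72 to 95.0% ± 1.90, in a region masked over 84.4% of its length, limma adjusted p = 0.936).

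Regions at developmental genes were mostly of low DNAme, with a median control level of 1.05% in the Hox clusters and 0.922% in the other factors against 6.90% over all regions, and their shares of DMRs are to be read against the 1.35% of regions below 25%. The 4 Hox clusters, whose 39 genes pattern the body axis, had 165 regions with 1 DMR (0.606%) and 9 (5.45%) at p below 0.05, and the median change was 0.04 points. The DMR lay at the non-coding RNA Hottip, 2416 bp from Hoxa13 (18% ± 15.2 in control, 12.5% ± 7.37 in 8 recovery 1 libraries, limma adjusted p = 0.978), and the smallest p was at the promoter of Hoxd11 (0.792% ± 0.389 in 9 libraries to 1.68% ± 1.31, limma adjusted p = 0.924). The 40 other developmental transcription factors had 332 regions with 4 DMRs (1.20%), of which 1 was higher, and 24 (7.23%) at p below 0.05, of which 12 were higher. Their smallest p was in untranslated sequence of Pax2, a factor of kidney and brain development, within 1000 bp of a start of 1700039E22Rik, where control libraries ran from 0% over 0.258% to 3.12% and recovery 1 libraries from 0.255% over 2.13% to 8.74%. The change there was 2.22 ± 0.63 points (limma adjusted p = 0.868). Another Pax2 exon was a DMR, at 36.9% ± 14.2 in control and 28.9% ± 9.39 in recovery 1 (limma adjusted p = 0.943). The other DMRs of the list were an intron of Otx1 (10.6% ± 6.28 in 7 libraries, 4.12% ± 2.29 in 9), an intron of Pax5 (93.9% ± 3.37, 89.6% ± 7.86, and -5.17 points over cytosines) and a region 4802 bp from Dlx5 (88.3% ± 9.79, 94.3% ± 4.46).

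Genes of neural signalling had 145 regions at 29 of 30 genes, with 1 DMR (0.690%) and 8 (5.52%) at p below 0.05, and a median change of 0.02 points. The smallest p lay in an intron of Grin2b, an NMDA receptor subunit, in a region masked over 65.5% of its length. Control libraries ran from 95.9% over 97.6% to 98.5% and recovery 1 libraries from 90.5% over 95.4% to 97.2%, and 6 of 9 recovery 1 libraries lay below every control (-2.18 ± 0.72 points, limma adjusted p = 0.872). The DMR was in an exon of Cacna1c, a calcium channel subunit, which was higher in recovery 1 (93.1% ± 5.07 to 96.5% ± 2.17 over libraries, 7.76 points over cytosines, limma adjusted p = 0.936).

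The DMRs themselves were followed through the groups that had no part in choosing them. At the 1579 lower DMRs, whose median level was 51.8% in control and 43.3% in recovery 1, smoked WT was at 48.1%, recovery 2 at 48.4%, recovery 3 at 44.8% and unexposed Nrf2-/- sperm at 46.9%. At the 558 higher DMRs, at 70.7% in control and 78.6% in recovery 1, smoked WT was at 73.4%, recovery 2 at 74.6%, recovery 3 at 73.8% and unexposed Nrf2-/- sperm at 73.8%. Because the DMRs were chosen for a gap between control WT and recovery 1, other groups are likely to fall between these by that choice alone, and nothing is read from their order.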

How the data were processed

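RRBS libraries were made by the authors from swim-out sperm of cauda epididymis and vas deferens after lysis of somatic cells, with MspI and TaqαI digestion, and reads were aligned to mm10 with Bismark (version not given in the sources used here). The deposited values are the percent of methylated reads per cytosine, computed by the authors. Read counts were not used here, so that depth is unknown and no counting interval is given. Columns were matched to groups by their tables, not to single samples, and 0 value columns of these tables were left over. Tables of F1 offspring were not used. All positions fell on a C of a CpG in the GRCm38.p6 genome.

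A region's value in a library began from the mean of its cytosines over the 7 F0 groups. To this was added the library's mean deviation over the cytosines it had, kept within the bounds of a percentage. A library with fewer than 50% of the cytosines had no value. limma 3.58.1 (R 4.3.3) fitted group means to all 67 F0 libraries, with Benjamini-Hochberg adjustment over 62831 regions. Single values were compared by exact permutation of libraries. Python 3.11.15, numpy 2.4.6, pandas 2.3.3 and matplotlib 3.10.9 were used, genes came from GENCODE vM21 (basic), and scripts were tested on simulated data. Named were the 20 regions of smallest p with at least 5 values per group, the largest DMR without overlap and with at least 7 values per group, the region of smallest p in each gene list and against smoked WT; further DMRs in the lists, the region near Nkx2-9 and the largest DMRs were named after their values were seen. Of the 20 regions, 1 is counted but not reported here. The members, gene lists and tests were chosen with earlier results of these data known. Alternatives covered joining distance, threshold, library minimum, scaling, weights, single libraries left out and a replicate block.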

Additional observations from a re-analysis of the deposited data

Results flagged for a closer look

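Within a group, 1 library lay apart from the others in 10 of the 69 groups of region values examined with Dixon's criterion at 95%, where chance flags about 1 in 20. In recovery 1 these were library 1 near Ccn2 (2.5%, the nearest at 0.215%), library 7 at Mtg1 (66%, the nearest at 77.3%), library 2 at Enpp4 (1.33%, the nearest at 0.311%), and library 10 at Zbtb16 (92.9%, the nearest at 95.8%), at Pax2 (8.74%, the nearest at 4.53%) and at Grin2b (90.5%, the nearest at 94.3%). In control WT they were library 7 at Igf2r (19.01%, the nearest at 23.3%), library 6 at Zbtb16 (88.8%, the nearest at 93.6%), library 9 at Pax2 (3.12%, the nearest at 1.30%) and library 3 at Enpp4 (0.714%, the nearest at 0.311%). At Enpp4 control libraries 2, 6, 7 and 9 shared the value of 0.311%, which reflects filled cytosines near the floor. The rate of 1 in 20 may not hold for the flags at this region.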

How the results depend on the processing

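The difference in mean DNAme was 0.502 points over all cytosines, -0.0274 over cytosines in every library and -0.0729 with at least 6 libraries per group, and the difference in spread was -0.0222 over cytosines in every library. DMRs by size numbered 977 with a joining distance of 50 bp, 4823 with 300 bp, 363 above 10 points, 1324 with at least 6 libraries per group and 3394 in regions built from the 2 groups alone. Changed cytosines numbered 30909 above 10 points and 74835 with at least 6 libraries. limma passed 1 region with the 2 groups alone and 4 with every cytosine required. With single libraries left out, the ranges were -0.237 to 0.632 points for mean DNAme, -0.101 to 0.0629 for promoters, -0.456 to 0.158 for exons, -0.549 to 0.0477 for introns, -0.0983 to 0.0646 below 25%, -2.72 to -1.78 at 25% to 50%, -2.29 to -1.80 at 50% to 75%, -0.0790 to 0.0733 in the class of highest CpG density, -0.327 to 0.194 on autosomes, -0.803 to 0.254 on chromosome X, -0.00163 to 0.183 for spread, 2039 to 2443 for DMRs and 0 to 3 for regions passed by limma. At Enpp4 recovery 1 minus control was -0.0626 points without recovery 1 library 2 and 0.145 at most, without control library 3. The causes were not tested. Runs of heading numbers did not pair the libraries (9 correlations from -0.0460 to 0.0686 over 41086 regions, 2 of 9 highest with their own run), and a fit with the replicate block by run passed 0 regions, with 3574 at an unadjusted p below 0.05 against 3391 for the WT groups without the block. Depth is unknown, and lead regions at Mier1, Pold2 and Slc36a2 rest on 5 libraries in 1 group.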
